A study of Mus musculus with 14 samples.

Results

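Serpins are a family of protease inhibitors and of relatives that have lost that function. This account covers every mouse gene on the arrays whose name, as printed in the scanner output or as updated through RefSeq, begins with Serpin. There were 48 such genes, read by 60 probes, among 36093 genes in all, and the brightest probe stood for its gene. The study asked how the liver responds to a high-calorie diet and to resveratrol, a plant polyphenol, given with that diet. All mice were male C57BL/6, aged 1 year, with food always available. The standard group (n = 5) ate the AIN-93G diet, the high-calorie group (n = 5) ate AIN-93G altered so that fat gave 60% of the calories, and the resveratrol group (n = 4) ate the high-calorie diet with 0.04% resveratrol. Each array carried 1 animal's liver RNA labelled with Cy3 and, labelled with Cy5, a pool of 5 livers from standard-diet mice. The dyes were never exchanged. No group received resveratrol on the standard diet. Values below are log2 Cy3/Cy5, the animal over the pool, and differences between groups are differences of these log2 ratios with their standard errors. A value of 0 means the animal and the pool gave equal signal.

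A typical serpin holds out a flexible loop as bait. When a serine protease cuts it, the serpin folds around the loop and traps the enzyme in a dead complex, so each inhibitor molecule is used once. The liver secretes most plasma serpins, which restrain clotting, clot breakdown, complement and neutrophil elastase, while the B clade works mainly inside cells. Other members carry hormones or help collagen to fold and inhibit no protease. Mice have several near-identical copies of the antitrypsin and antichymotrypsin genes where humans have 1 of each. Levels cannot be compared between genes on these arrays, so all statements below compare groups for the same probe.

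The arrays differed in brightness, with a median background-subtracted Cy3 signal of 48.6 to 114 and 77.9% to 92.4% of probes well above background. High-calorie arrays spanned 57.7 to 114 and standard arrays 48.6 to 85.6. Resveratrol replicate 3 stood furthest from the rest. Its Saa3 ratio, for an acute-phase serum amyloid, was 2.98, against -4.96, -5.32 and -2.54 on resveratrol replicates 1, 2 and 4. Saa3 ran from -5.46 to -4.92 on standard and from -4.68 to -4.30 on high-calorie arrays, which did not overlap. The mean over the 20 acute-phase genes with no saturated spot was 1.496 on resveratrol replicate 3. It was -1.21, -1.19 and -0.51 on resveratrol replicates 1, 2 and 4 and -1.20 to -0.97 over the other groups. Resveratrol replicate 4 also lay above the other groups in both, by less. The serpin differences that replicate 3 moved most are also given without that array, and such fits still hold replicate 4. Feature Extraction, the software that reads the scanned image, was run on 2 days. The first day held standard replicates 1, 3 and 4, high-calorie replicates 1 and 4 and all resveratrol arrays, and the second held the rest. The slides came in 2 number series: the first held high-calorie replicates 1 and 4 and resveratrol replicates 1, 3 and 4, and the second held the rest, all standard arrays among them.

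Serpin transcripts were widely detected in these livers. Of the 48 genes, 40 (83.3%) were well above background on all 14 arrays, against 71.4% of all genes. All 15 clade A genes were among them. Serpinb12 and Serpinb3c were above background on 13 arrays and Serpinb10 on 9. A gene was tested if it was above background on at least 4 arrays, which left out Serpinb5 (2 arrays), Serpinb9 (1 array), Serpinb3d and Serpinb9b (0 arrays each). The other 44 were tested. Serpina1d, an antitrypsin gene, was among them, but its spot was saturated in Cy5 on all 14 arrays and in Cy3 on 10, so no difference of it is given. It is counted among the 44, and medians and counts without it, chosen after seeing the data, stand beside those with it.

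On the high-calorie diet the serpins that differed from the standard diet were mostly lower. Of 44 genes tested, 10 fell and 1 rose, while 9.44% of all 32662 genes tested were called, 5.37% higher and 4.07% lower. A call is an adjusted p under 0.05 in limma, adjusted by the Benjamini-Hochberg method over all genes. The 11 calls were 25% of the serpins tested. The tissue is whole liver, so fewer cells of a type and less RNA per cell cannot be told apart. The genes that fell were Serpina1b, Serpina3c, Serpina3k, Serpina3m, Serpina11 and Serpina12 of clade A, Serpinb3b and Serpinb9d of clade B, Serpinc1 and Serpinf1. Serpinb1a rose. The median difference over the serpins was -0.073, against -0.0021 over all genes, and 13 of 44 serpins lay above zero. In 14 of 44 serpins (31.8%) the values of the high-calorie and standard arrays did not overlap, against 10.3% of all genes. Without the saturated Serpina1d the median was -0.071, 13 of 43 lay above zero and 14 of 43 (32.6%) did not overlap. With array brightness in the model 5 serpins and 863 of all genes were called. The serpins lost were Serpina1b, Serpina12, Serpinb1a, Serpinb3b, Serpinb9d and Serpinf1. With Cy3 alone or the deposited scores 3 serpins were called, Serpina3k, Serpina3m and Serpina11, beside 430 and 417 of all genes. With the slide series as a block 9 were called, without Serpinb3b and Serpinb9d, beside 1882 of all genes. The count was 7 without standard replicate 3 or without standard replicate 4, and 17 without standard replicate 5. Over all genes these fits gave 1508, 1771 and 5994 calls, where 3083 were called with every array.

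With resveratrol added to the high-calorie diet, every serpin that changed was higher than on the high-calorie diet alone. Of 44 genes, 7 rose (15.9%) and none fell, while 5.39% of all genes were called, 3.16% higher and 2.23% lower. They were Serpina3c, Serpina3k, Serpina3m, Serpina11, Serpinf2, Serpinb3b and Serpinb9d. The median over the serpins was 0.079, against -0.0068 over all genes, and 31 of 44 lay above zero. The values did not overlap in 11 serpins (25%), against 12.9% of all genes. Without Serpina1d the median was 0.077, 30 of 43 lay above zero and 10 of 43 (23.3%) did not overlap. This comparison and the previous one share the high-calorie arrays, so their differences are not independent, and the values are set side by side with no test between them. Without resveratrol replicate 1 there were 4 serpin calls, against 352 over all genes, where 1760 were called with every array. With the median of each array set to zero in place of loess there were 0 serpin calls, against 120 calls over all genes. With the slide series as a block 5 serpins were called, without Serpina11 and Serpinf2, beside 672 of all genes. With the Feature Extraction day as a block 4 were called, without Serpina11, Serpinb3b and Serpinf2, beside 445 of all genes.

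Between resveratrol and standard livers no serpin was called by limma. An unadjusted p under 0.05 was found for 6 of 44 serpins, beside 3465 of all 32662 genes. Over all genes 0.214% were called, 0.126% higher and 0.0888% lower. With the Feature Extraction day as a block, or within the first day, 1 serpin was called, Serpina5, beside 63 and 55 of all genes. The median over the serpins was 0.019, or 0.022 without Serpina1d, and the values of 1 gene (2.27%) did not overlap, against 2.91% of all genes. That gene was Serpina5, which encodes protein C inhibitor and is named here because of its values: standard livers held 0.51, 0.13, 0.52, 0.37 and 0.043 and resveratrol livers -0.011, 0.016, 0.020 and -0.029. The difference was -0.31 ± 0.095 (limma adjusted p = 0.237), beside -0.25 for high-calorie minus standard (adjusted p = 0.0886). The probe was dim, with a background-subtracted Cy3 signal of 33 to 69.3, and the gene's other probe was above background on 0 arrays. A p over the threshold does not show that the diets act alike.

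**Figure D1:**
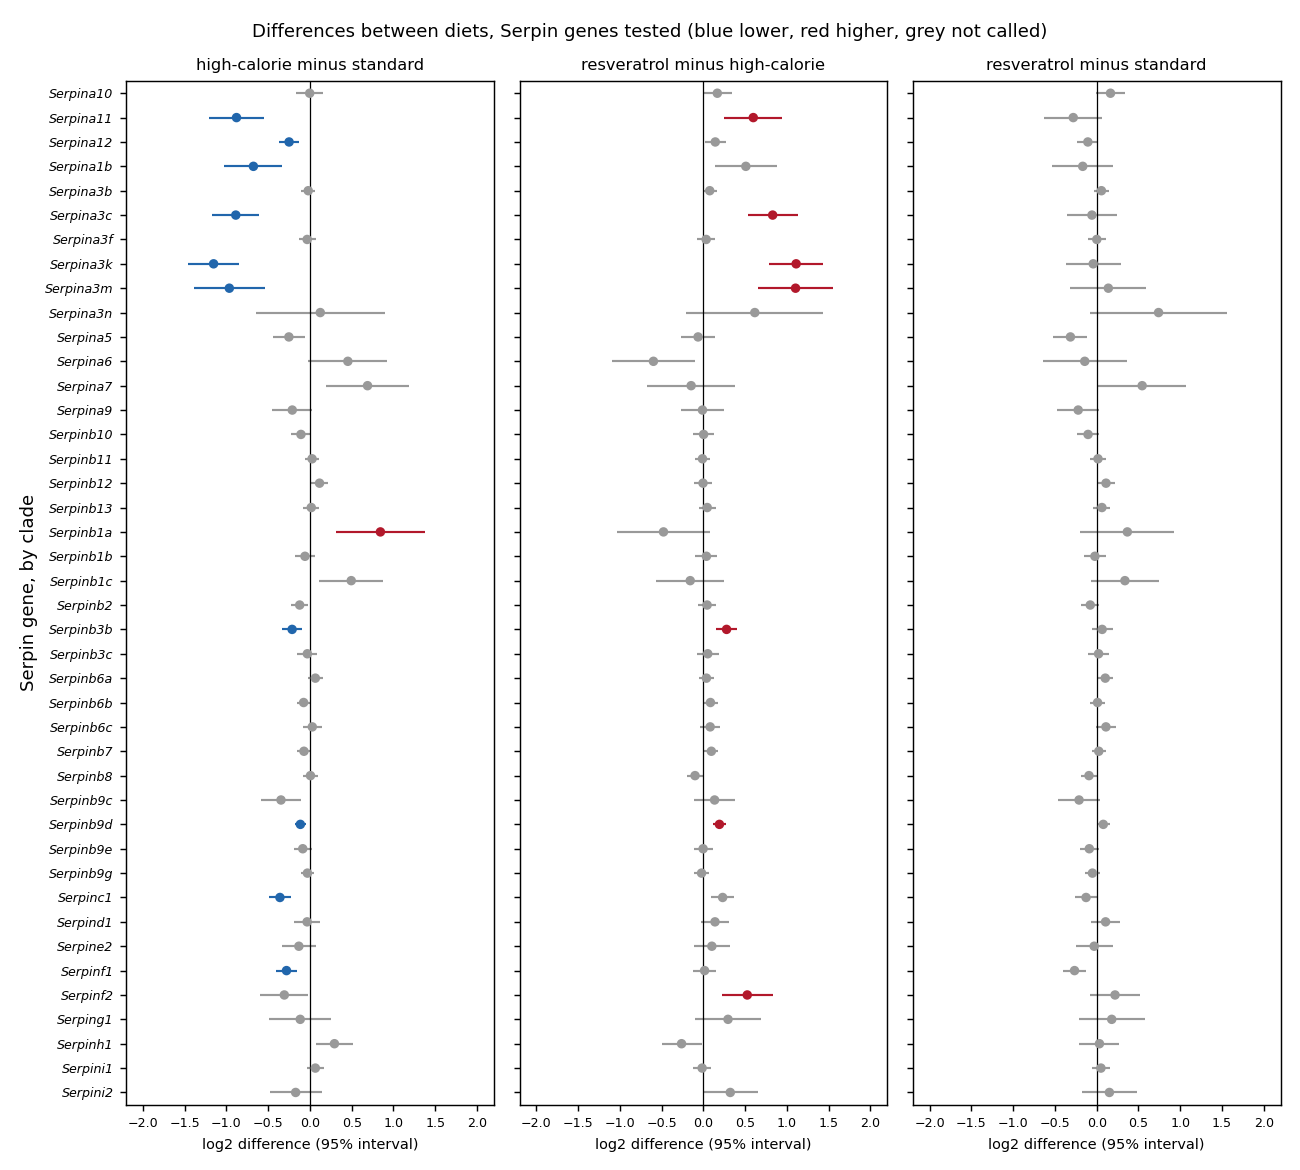
Differences in log2 Cy3/Cy5 with 95% confidence intervals for the tested serpins reported here, by clade, in 1 panel for each of the 3 comparisons, with called genes in blue where lower and red where higher and the rest in grey. Serpina1d is left out because its spot was saturated. The points furthest below zero on the high-calorie diet, Serpina3k (-1.15), Serpina3m (-0.96) and Serpina3c (-0.89), lie above zero when resveratrol is compared with the high-calorie diet (1.11, 1.10 and 0.83).

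The largest differences among the called serpins belonged to the antichymotrypsin copies of clade A. RefSeq (GRCm38.p6) places 14 of the members on chromosome 12, which are the clade A genes other than Serpina7. The pair of promoters with the closest match among the antichymotrypsin copies with a RefSeq window is printed because the copies differ in their data. The 250 bases upstream of Serpina3c (chr12:104153873-104154122, minus strand) and Serpina3n (chr12:104406458-104406707, plus strand) are shown 5′ to 3′ on the gene's strand, with capitals at the 18 bases that differ among 247 aligned bases, of which 229 (92.7%) are identical.
Serpina3c: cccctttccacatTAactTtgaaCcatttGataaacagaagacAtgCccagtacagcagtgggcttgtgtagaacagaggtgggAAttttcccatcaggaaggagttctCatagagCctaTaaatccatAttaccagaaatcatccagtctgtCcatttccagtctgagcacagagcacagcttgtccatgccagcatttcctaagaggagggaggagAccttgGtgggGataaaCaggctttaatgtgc
Serpina3n: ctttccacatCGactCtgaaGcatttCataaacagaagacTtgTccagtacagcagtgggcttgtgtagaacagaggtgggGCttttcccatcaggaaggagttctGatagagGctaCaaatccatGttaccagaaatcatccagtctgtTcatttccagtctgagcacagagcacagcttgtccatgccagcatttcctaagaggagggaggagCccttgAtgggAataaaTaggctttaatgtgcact
Serpina3c fell on the high-calorie diet and Serpina3n was not called, as given next.

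Serpina3k encodes contrapsin, also known as kallikrein-binding protein, and fell furthest among the serpins on the high-calorie diet. Its log2 Cy3/Cy5 was -0.21, 0.24, 0.13, -0.085 and -0.28 in standard livers (mean -0.042 ± 0.22, SD, n = 5), -1.40, -0.86, -1.23, -1.33 and -1.16 in high-calorie livers (-1.20 ± 0.21, SD, n = 5) and -0.043, -0.34, 0.38 and -0.33 in resveratrol livers (-0.084 ± 0.34, SD, n = 4). All 5 high-calorie livers lay below every other liver, and standard and resveratrol livers overlapped. It fell by 1.15 ± 0.14 on the high-calorie diet (2.22-fold, limma adjusted p = 0.000392). Resveratrol livers were higher than high-calorie livers by 1.11 ± 0.15 (limma adjusted p = 0.00398). Against the standard diet resveratrol livers differed by -0.042, with a 95% confidence interval from -0.37 to 0.29. Its other probe gave -1.23 and 1.04 for the first and second comparison.

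Serpina3c and Serpina3m are further antichymotrypsin copies. Serpina3c read 0.38, 0.37, 0.44, 0.12 and 0.19 in standard, -0.92, -0.28, -0.64, -0.65 and -0.46 in high-calorie and 0.14, 0.14, 0.70 and -0.010 in resveratrol livers. The high-calorie livers were again the lowest 5 of 14. It fell by 0.89 ± 0.13 on the high-calorie diet (1.85-fold, limma adjusted p = 0.00131) and was higher by 0.83 ± 0.14 with resveratrol (limma adjusted p = 0.00821). Serpina3m read 0.93, 1.30, 0.75, 0.39 and 0.53 in standard, -0.22, 0.31, -0.096, -0.70 and -0.22 in high-calorie and 1.01, 0.54, 1.34 and 0.78 in resveratrol livers. The highest high-calorie liver, replicate 2, was still below the lowest liver of both other groups. The differences were -0.96 ± 0.20 on the high-calorie diet (1.95-fold, limma adjusted p = 0.0099) and 1.10 ± 0.21 with resveratrol (limma adjusted p = 0.0131). The second call was lost without resveratrol replicate 1 (adjusted p = 0.0512). With median centring in place of loess, high-calorie minus standard was -0.64 for Serpina3k (limma adjusted p = 0.0378), so that call was kept. It was -0.53 for Serpina3c (adjusted p = 0.0574) and -0.42 for Serpina3m (adjusted p = 0.135), and both calls were lost. With Cy3 alone Serpina3k gave -1.07 and Serpina3m -0.90, both called, but Serpina3c gave -0.30 (limma adjusted p = 0.68). The deposited scores also lost the Serpina3c call (adjusted p = 0.624). The pool's Serpina3m spot was saturated on all 14 arrays and the animals' on none, so each ratio has a capped denominator and the ratios compare the animals' signals against that cap.

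Serpina3n, the copy whose promoter is shown above, did not pass the test. It read -0.58, -0.95, -0.43, -0.44 and -0.52 in standard and -0.40, -0.28, -0.63, -0.51 and -0.46 in high-calorie livers, which overlapped, a difference of 0.12 (limma adjusted p = 0.854). In resveratrol livers it read -0.57, -0.60, 1.93 and -0.12. Resveratrol replicate 3 was far above every other liver. Resveratrol minus high-calorie was 0.62 ± 0.38 (limma adjusted p = 0.373) with that array and 0.026 (adjusted p = 0.938) without it. The probes' sequences were not used here, so how far a probe also binds a near-identical copy was not tested for any of these genes.

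Serpina1b encodes an alpha-1 antitrypsin, which inhibits neutrophil elastase. It read 0.53, 0.15, 0.86, 0.85 and 0.47 in standard, -0.17, 0.033, -0.089, -0.040 and -0.26 in high-calorie and 0.16, 0.40, 0.98 and 0.078 in resveratrol livers. All high-calorie livers lay below all standard livers. It fell by 0.68 ± 0.16 on the high-calorie diet (1.6-fold, limma adjusted p = 0.0205), a call lost without standard replicate 3, standard replicate 4 or high-calorie replicate 5 (adjusted p up to 0.0595). With median centring the difference was -0.20. Resveratrol minus high-calorie was 0.51 ± 0.17 (limma adjusted p = 0.0978), or 0.32 (adjusted p = 0.242) without resveratrol replicate 3.

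Serpina11 is a secreted clade A gene with little described function. It read 0.98, 0.52, 1.06, 0.81 and 0.35 in standard, -0.15, -0.013, -0.014, -0.27 and -0.22 in high-calorie and 0.38, 0.16, 0.99 and 0.33 in resveratrol livers. Every high-calorie liver was below every other liver. It fell by 0.88 ± 0.15 on the high-calorie diet (1.84-fold, limma adjusted p = 0.00382). The rise with resveratrol was 0.60 ± 0.16 (limma adjusted p = 0.0485). That second call was lost without standard replicate 1 or 4, without any 1 high-calorie array, and without resveratrol replicate 1, 3 or 4, with 0.42 (adjusted p = 0.118) left when replicate 3 was omitted. It was also lost with the day as a block (adjusted p = 0.193) or the slide series as a block (adjusted p = 0.111). Serpina12 encodes vaspin, an adipokine described as insulin-sensitising. It read 0.019, 0.095, 0.23, 0.14 and -0.0006 in standard, -0.080, -0.13, -0.070, -0.18 and -0.31 in high-calorie and 0.077, 0.0065, -0.10 and -0.025 in resveratrol livers. High-calorie livers lay below all standard livers and overlapped the resveratrol livers. It fell by 0.25 ± 0.056 (1.19-fold, limma adjusted p = 0.0155). The call was lost with array brightness in the model (adjusted p = 0.0818), with Cy3 alone (adjusted p = 0.11), with the deposited scores (adjusted p = 0.123) and within each Feature Extraction day (adjusted p = 0.112 and 0.458). The difference was -0.068 without background correction, -0.44 with the scanner's processed signals and -0.49 with Cy3 alone. The probe was dim, with a background-subtracted Cy3 signal of 47.5 to 92.6. Serpina3b, Serpina3f and Serpina9, further secreted members, were not called, with -0.020, -0.033 and -0.21 on the high-calorie diet and 0.077, 0.034 and -0.010 with resveratrol.

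**Figure D2:**
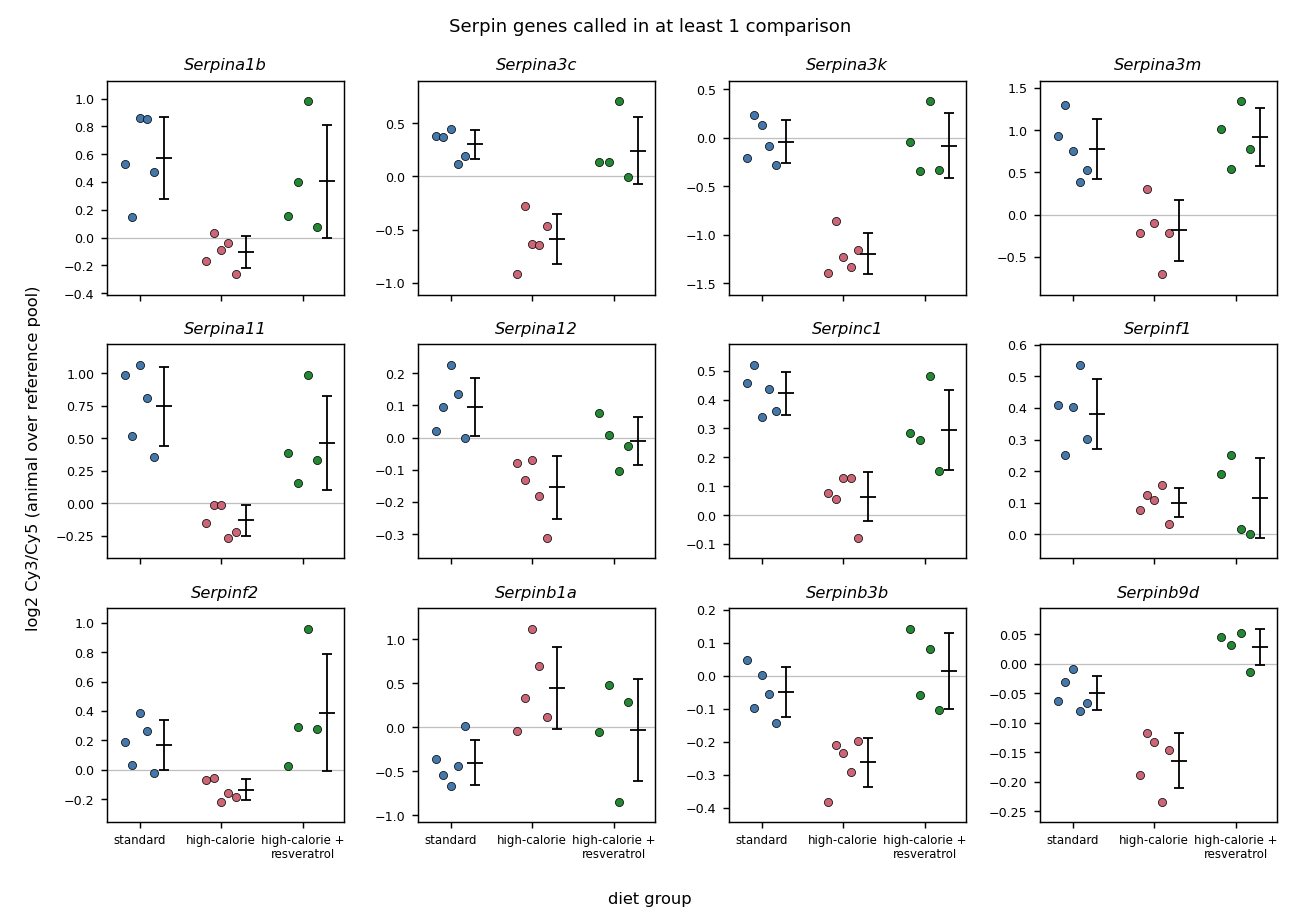
Log2 Cy3/Cy5 on each array for the 12 serpins called in at least 1 comparison, 1 panel a gene, with a point for each array and, beside each group, its mean and SD. In Serpina3k the 5 high-calorie points lie between -1.40 and -0.86 and the lowest other point is at -0.34.

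Among the clotting and clot-lysis inhibitors, antithrombin fell on the high-calorie diet and antiplasmin rose with resveratrol. Serpinc1, which encodes antithrombin, the main inhibitor of thrombin and factor Xa, read 0.46, 0.52, 0.34, 0.44 and 0.36 in standard, 0.078, 0.057, 0.13, 0.13 and -0.078 in high-calorie and 0.28, 0.26, 0.48 and 0.15 in resveratrol livers. High-calorie livers were the lowest 5 of 14. It fell by 0.36 ± 0.061 on the high-calorie diet (1.28-fold, limma adjusted p = 0.00296), while median centring in place of loess gave 0.11, the other sign. Its dimmer probe gave -0.17 (limma adjusted p = 0.655 over all probes). With resveratrol the difference was 0.23 ± 0.064 (limma adjusted p = 0.0517), and with median centring it was -0.046. It would have been called without standard replicate 2 (adjusted p = 0.0412) or without resveratrol replicate 4 (adjusted p = 0.0264).

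Serpind1 encodes heparin cofactor II, a second thrombin inhibitor. It read -0.30, -0.22, -0.27, -0.026 and 0.10 in standard, -0.31, -0.15, -0.16, -0.17 and -0.10 in high-calorie and 0.082, 0.0017, -0.079 and -0.15 in resveratrol livers. The groups overlapped, with -0.034 ± 0.075 for high-calorie minus standard (limma adjusted p = 0.806) and 0.14 ± 0.079 for resveratrol minus high-calorie (limma adjusted p = 0.326). With median centring these were 0.34 and -0.067, both of the other sign. Serpinf2 encodes alpha-2 antiplasmin, which blocks the clot-dissolving enzyme plasmin. It read 0.19, 0.029, 0.39, 0.26 and -0.021 in standard, -0.067, -0.058, -0.22, -0.16 and -0.19 in high-calorie and 0.023, 0.29, 0.96 and 0.28 in resveratrol livers. High-calorie livers lay below all others. High-calorie minus standard was -0.31 ± 0.13 and was not called (limma adjusted p = 0.154), but passed without resveratrol replicate 3 (adjusted p = 0.0265), an array that enters this comparison only through the shared spread. With median centring it was 0.054, the other sign (adjusted p = 0.811). Serpinf2 rose by 0.53 ± 0.14 with resveratrol (limma adjusted p = 0.0465), and by 0.34 (adjusted p = 0.0635, no longer called) without replicate 3. The call was also lost without standard replicate 1, 3 or 4, any 1 high-calorie array, or resveratrol replicate 2 or 4, and with the day as a block (adjusted p = 0.185) or the slide series as a block (adjusted p = 0.109).

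Serpine2, protease nexin-1, and Serpina10, which helps to inhibit factor Xa, were not called in any comparison. Their differences were -0.13 and -0.0027 on the high-calorie diet and 0.10 and 0.17 with resveratrol.

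Serping1 encodes C1 inhibitor, which restrains complement and the contact system. It read 0.60, -0.078, 0.70, 0.67 and 0.61 in standard, 0.18, 0.49, 0.49, 0.40 and 0.37 in high-calorie and 0.44, 0.32, 1.28 and 0.70 in resveratrol livers. Standard replicate 2 lay below and resveratrol replicate 3 above all other livers, and the groups overlapped. The difference was -0.12 ± 0.17 on the high-calorie diet (limma adjusted p = 0.701), and 0.074 with median centring. With resveratrol it was 0.30 ± 0.18 (adjusted p = 0.376), or 0.098 (adjusted p = 0.785) without replicate 3.

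The hormone carriers did not pass the test. Serpina6 encodes corticosteroid-binding globulin and read 0.56, -0.12, 0.23, 0.62 and 1.05 in standard, 0.77, 0.66, 1.13, 1.10 and 0.95 in high-calorie and 0.41, 0.81, -0.38 and 0.46 in resveratrol livers. Resveratrol replicate 3 was the lowest liver of 14 and the other groups overlapped. High-calorie minus standard was 0.45 ± 0.22 (limma adjusted p = 0.196) and resveratrol minus high-calorie -0.60 ± 0.23 (limma adjusted p = 0.149), or -0.36 (adjusted p = 0.373) without replicate 3. Serpina7, thyroxine-binding globulin, is named because of its values. It read -0.30, -1.03, -0.30, -0.24 and -0.099 in standard, 0.15, 0.47, 0.26, 0.36 and 0.25 in high-calorie and -0.41, -0.12, 1.08 and 0.047 in resveratrol livers. All high-calorie livers were above all standard livers, the opposite order to Serpina3k, yet the difference of 0.69 ± 0.23 was not called (limma adjusted p = 0.0725), though it passed without resveratrol replicate 3 or without standard replicate 5. Resveratrol minus high-calorie was -0.15 (adjusted p = 0.773), or -0.46 (adjusted p = 0.169) without resveratrol replicate 3.

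Of the secreted or resident serpins that inhibit no protease, Serpinf1 was called and Serpinh1 was not. Serpinf1 encodes pigment epithelium-derived factor, an anti-angiogenic protein that binds the lipase adipose triglyceride lipase. It read 0.41, 0.25, 0.40, 0.54 and 0.30 in standard, 0.077, 0.12, 0.11, 0.16 and 0.033 in high-calorie and 0.19, 0.25, 0.015 and 0 in resveratrol livers. All standard livers were above all high-calorie livers. It fell by 0.28 ± 0.060 (1.22-fold, limma adjusted p = 0.0123), but median centring gave 0.12 and its dimmer probe 0.041 (limma adjusted p = 0.784 over all probes). Resveratrol minus high-calorie was 0.015 ± 0.064 (adjusted p = 0.923), and -0.20 with median centring.

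Serpinh1 encodes HSP47, the chaperone of collagen in the endoplasmic reticulum. It read -0.069, 0.42, 0.18, -0.18 and 0.31 in standard, 0.48, 0.44, 0.29, 0.38 and 0.54 in high-calorie and 0.40, 0.12, 0.034 and 0.11 in resveratrol livers. The high-calorie livers had the narrowest spread and overlapped both other groups. High-calorie minus standard was 0.29 ± 0.11 (limma adjusted p = 0.0901), called without standard replicate 2 (adjusted p = 0.0407) or 5 (adjusted p = 0.0483), and resveratrol minus high-calorie was -0.26 ± 0.11 (adjusted p = 0.186). Beside it, the mean over the stellate cell markers ran from 0.0023 to 0.19 on standard arrays, from 0.23 to 0.30 on high-calorie arrays and from -0.020 to 0.17 on resveratrol arrays. The part of this in the serpin values was not tested.

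In the intracellular B clade, 1 of 19 genes tested rose and 2 fell on the high-calorie diet (15.8% called, against 9.44% of all genes). With resveratrol 2 of 19 rose (10.5%, against 5.39%). Serpinb1a encodes an inhibitor of neutrophil elastase and cathepsin G in leukocytes. It read -0.36, -0.54, -0.67, -0.44 and 0.011 in standard, -0.044, 0.33, 1.12, 0.70 and 0.12 in high-calorie and -0.051, 0.48, -0.84 and 0.28 in resveratrol livers. Standard replicate 5 overlapped the high-calorie group. It rose by 0.84 ± 0.25 (limma adjusted p = 0.0468), and the call held in 4 of 14 fits that each left out 1 array (standard replicate 5, high-calorie replicate 1 and resveratrol replicates 2 and 3). With the day as a block the adjusted p was 0.0713 and with array brightness in the model 0.148. Resveratrol minus high-calorie was -0.48 (adjusted p = 0.311), or -0.21 (adjusted p = 0.675) without replicate 3. Beside it, the mean over 10 Kupffer cell and macrophage markers ran from -0.9985 to -0.69 on standard arrays and from -0.64 to -0.37 on high-calorie arrays, which did not overlap, and from -0.89 to 0.18 on resveratrol arrays. None of the 10 was called on the high-calorie diet by limma and 4 had an unadjusted p under 0.05, beside 9025 of all 32662 genes. The mean over 8 neutrophil markers ran from -0.42 to -0.31 on standard and from -0.37 to -0.31 on high-calorie arrays, which overlapped. On resveratrol replicate 3, where Serpinb1a was the lowest of 14, the neutrophil mean was the highest of 14 (0.42). The macrophage mean there was -0.064. The part of either cell type in the serpin values was not tested.

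Serpinb3b is related to the squamous cell carcinoma antigens. It read 0.048, -0.098, 0.0020, -0.055 and -0.14 in standard, -0.38, -0.21, -0.23, -0.29 and -0.20 in high-calorie and 0.14, -0.059, 0.082 and -0.10 in resveratrol livers. High-calorie livers lay below all others. It fell by 0.21 ± 0.055 (limma adjusted p = 0.0296) and was higher with resveratrol by 0.28 ± 0.059 (limma adjusted p = 0.0182). The first call was lost without standard replicate 1, 3 or 4 or high-calorie replicate 1 or 4 and with the slide series as a block (adjusted p = 0.0762). The second was lost without resveratrol replicate 1 (adjusted p = 0.0731), with the day as a block (adjusted p = 0.0641) and within the first day (adjusted p = 0.11).

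Serpinb9d is a relative of Serpinb9, the granzyme B inhibitor. It read -0.063, -0.030, -0.0077, -0.080 and -0.066 in standard, -0.19, -0.12, -0.13, -0.23 and -0.15 in high-calorie and 0.046, 0.033, 0.053 and -0.014 in resveratrol livers. The differences were small and the high-calorie livers were the lowest 5 of 14. It fell by 0.11 ± 0.033 (limma adjusted p = 0.0435), and rose by 0.19 ± 0.035 with resveratrol (limma adjusted p = 0.00984). The first call was kept in 4 of 14 fits that left out 1 array, was lost when the slide series entered the model (adjusted p = 0.117), and had the other sign, 0.058, with median centring. The second was kept in all 14 such fits. It was lost with median centring (adjusted p = 0.36), with Cy3 alone or the deposited scores (adjusted p = 0.469 each) and within the first day (adjusted p = 0.11). The other 16 tested B-clade genes ran from -0.35 (Serpinb9c) to 0.49 (Serpinb1c) on the high-calorie diet and from -0.16 to 0.14 with resveratrol. Serpinb9c and Serpinb1c were named because of these values. Clade I was not called: Serpini1, neuroserpin, had 0.065 and -0.014, and Serpini2, pancpin, had -0.17 and 0.32 in the same comparisons. Without resveratrol replicate 3 the second Serpini2 difference was 0.089 (adjusted p = 0.473).

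**Figure D3:**
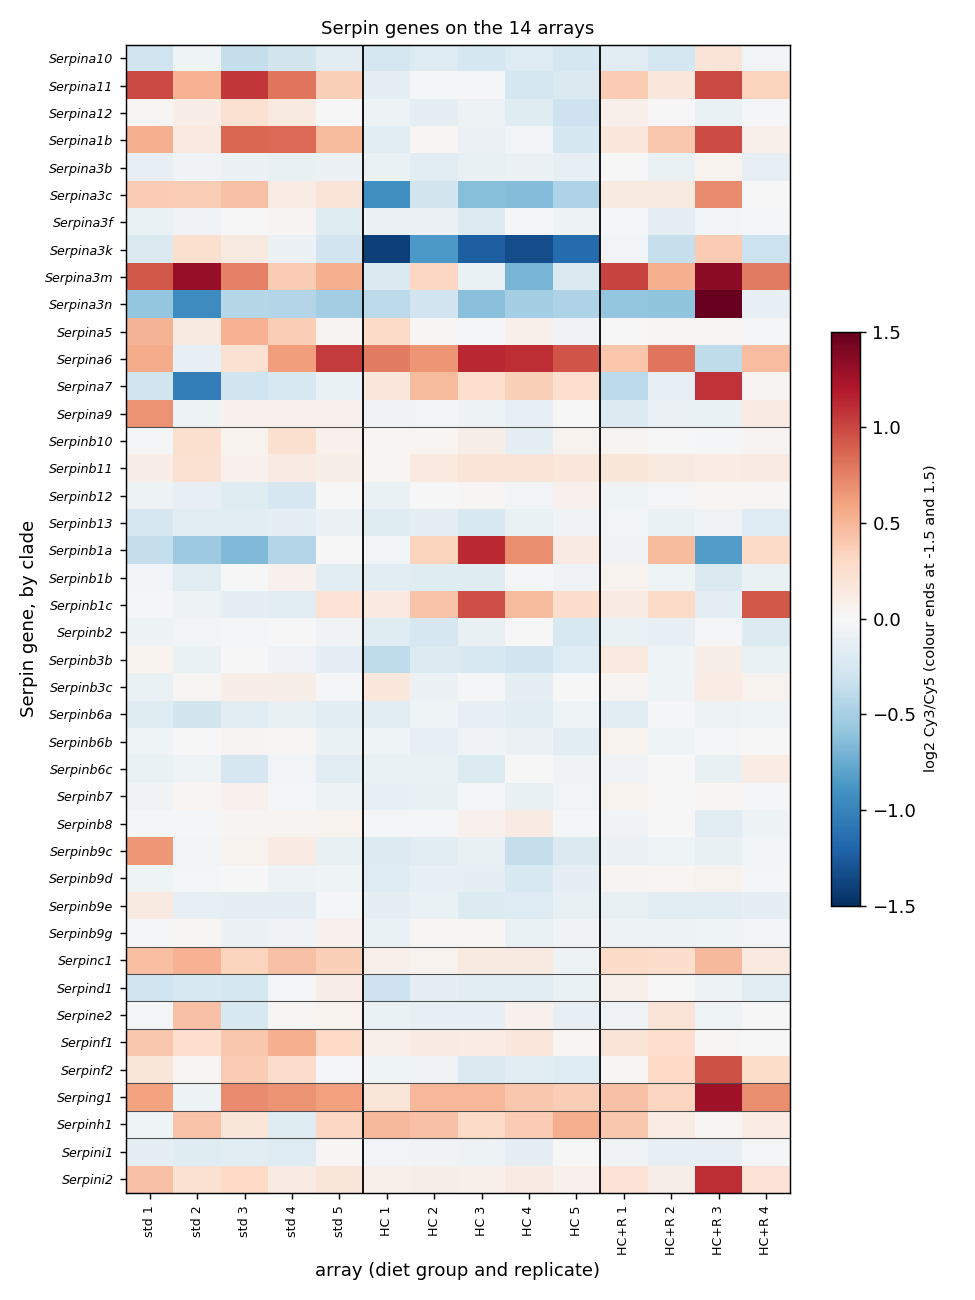
Log2 Cy3/Cy5 of the tested serpins reported here, without the saturated Serpina1d, on each of the 14 arrays (columns, by diet), with blue for lower and red for higher than the pool and the colour ending at -1.5 and 1.5. Most rows of clade B are pale, and the high-calorie columns of Serpina3k, with values of -1.40 to -0.86, form a dark blue run.

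Resveratrol replicate 3 was unlike its group for several serpins, most of them named because of this. Beside Serpina3n and Serping1 it held the highest resveratrol value of Serpina7 (1.08), Serpini2 (1.11), Serpinf2 (0.96), Serpina1b (0.98) and Serpina11 (0.99). It was also the highest for Serpina3k (0.38), Serpina3c (0.70), Serpina3m (1.34), Serpinc1 (0.48) and Serpina10 (0.19), among others. It held the lowest resveratrol value of Serpinb1a (-0.84) and Serpina6 (-0.38). The same array had the highest acute-phase mean, and its mean over neutrophil markers was 0.42, against -0.39, -0.36 and -0.029 on the other resveratrol arrays. Replicate 4 had the next highest acute-phase mean and the highest mean over Kupffer cell and macrophage markers (0.18). Without replicate 3, 13 serpins were called for high-calorie minus standard and 5 for resveratrol minus high-calorie. Over all genes 3460 and 959 were called in that fit. Serpina3k kept 0.96 (adjusted p = 0.00761), Serpina3c 0.68 (adjusted p = 0.0177) and Serpina3m 0.96 (adjusted p = 0.0364) for resveratrol minus high-calorie.

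**Figure D4:**
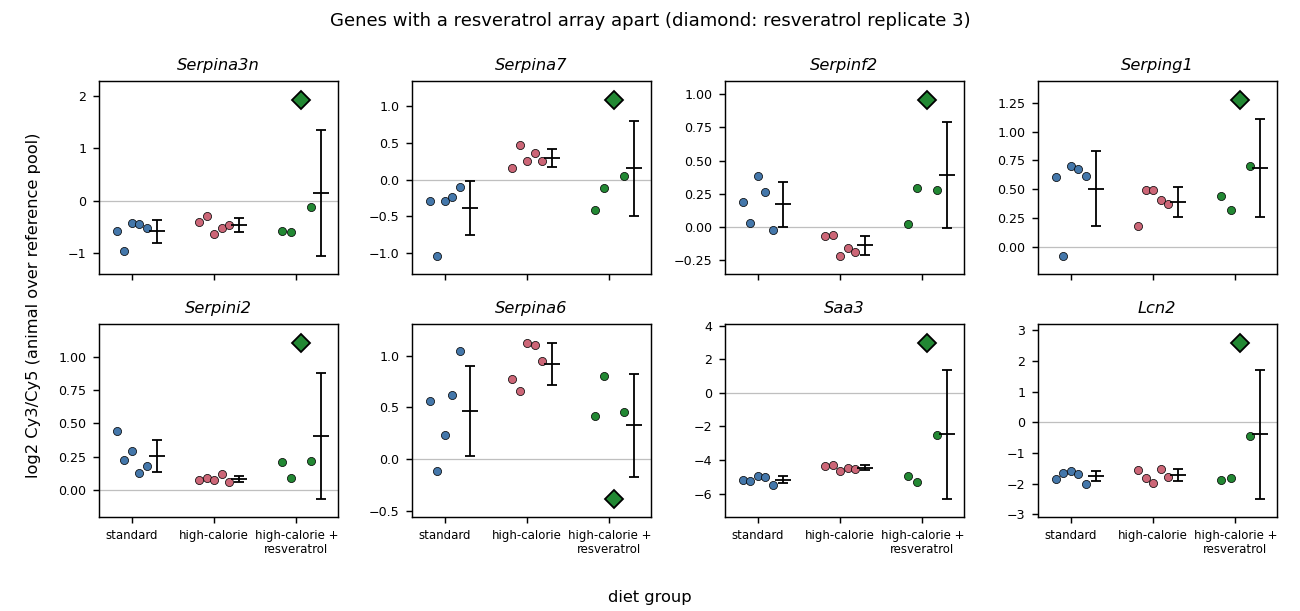
Log2 Cy3/Cy5 of Serpina3n, Serpina7, Serpinf2, Serping1, Serpini2, Serpina6 and the acute-phase genes Saa3 and Lcn2 on each array, by diet, with each group's mean and SD and with resveratrol replicate 3 as a diamond. Its Serpina3n point (1.93) and Saa3 point (2.98) lie above every other liver.

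The Feature Extraction day divided the arrays, so each difference was also read within a day. For high-calorie minus standard 4 serpins were called within the first day and 0 within the second. Over all genes 819 and 55 were called there, where 3083 were called on the pooled arrays. Genes called on the pooled arrays largely keep their direction within each day by that choice, so the values are given as a description. Serpina3k gave -1.31 on the first day and -1.06 on the second, Serpina3c -1.09 and -0.74, and Serpina11 -1.16 and -0.52. All resveratrol arrays were read on the first day, where 52 of all genes were called for resveratrol minus high-calorie. Serpina3k, with 1.28, was the 1 serpin among them, beside 1.38 for Serpina3m and 0.50 for Serpinf2, which were not called.

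The genes that serpins act on or with, from a list of textbook partners, moved in both directions. Of 27 target proteases tested, 6 fell and none rose on the high-calorie diet (22.2% called, against 9.44% of all genes). Their median was -0.10, against -0.0021 over all genes. With resveratrol added 3 rose and none fell (11.1%, against 5.39% of all genes, median 0.079). In resveratrol against standard livers 1 was lower (3.7%, against 0.214% of all genes). Proc, the anticoagulant protein C, fell by 0.67 ± 0.10 (limma adjusted p = 0.00167), and Hgfac, the activator of hepatocyte growth factor, fell by 0.46 ± 0.061 (adjusted p = 0.000594) and was lower in resveratrol than in standard livers (-0.41, adjusted p = 0.0205). F11, clotting factor XI and a target of antithrombin and C1 inhibitor, rose by 0.54 ± 0.11 with resveratrol (adjusted p = 0.0164), and C1ra, a complement protease held by C1 inhibitor, rose by 0.44 (adjusted p = 0.0284). Of 16 cofactors and receptors, 2 rose and 1 fell on the high-calorie diet (18.8%, against 9.44%), and 1 fell with resveratrol (6.25%, against 5.39%). Sdc1, a heparan sulphate proteoglycan, rose by 0.89 ± 0.14 (adjusted p = 0.00228) on the high-calorie diet. Vldlr, a receptor for serpin-protease complexes, rose by 0.17 (adjusted p = 0.0118) and fell by 0.21 with resveratrol (adjusted p = 0.0108).

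Of 29 other secreted protease inhibitors, 4 rose and 5 fell on the high-calorie diet (31% called, against 9.44% of all genes). With resveratrol 2 rose and 1 fell (10.3%, against 5.39% of all genes). Wfdc2, of the whey acidic protein type, rose by 0.72 ± 0.10 (limma adjusted p = 0.000978) and fell by 0.57 with resveratrol (adjusted p = 0.0136). Itih2, an inter-alpha-trypsin inhibitor chain, fell by 0.46 on the high-calorie diet (adjusted p = 0.0056), and Fetub, the protease inhibitor fetuin B, rose by 0.77 with resveratrol (adjusted p = 0.0318), a call lost without resveratrol replicate 3 (0.58, adjusted p = 0.0708). None of 27 acute-phase genes was called in any comparison by limma, with medians of 0.028, 0.75 and 0.71 in the order above. An unadjusted p under 0.05 was found for 3, 8 and 9 of them, beside 9025, 7242 and 3465 of all 32662 genes. Resveratrol replicate 3 enters the first comparison only through the shared spread, so a missing call there does not show that the diets act alike. Standard and high-calorie livers did not overlap for Saa3, as given above, but overlapped for Lcn2. Without resveratrol replicate 3 the second median was 0.15 and the third 0.12. Lcn2, an acute-phase siderophore-binding protein, read -1.89, -1.81, 2.60 and -0.45 in resveratrol livers, against -2.01 to -1.51 in the other 10. Replicate 3 stood furthest apart again, and replicate 4 also lay above the other 10. Saa1, the main serum amyloid, had a saturated pool on all 14 arrays and a saturated animal signal on 1, resveratrol replicate 3, so no difference is given. The smallest adjusted p among the acute-phase genes for resveratrol minus high-calorie was that of Fgb, a fibrinogen chain, with 0.89 (adjusted p = 0.0522), next to Itih3 with 1.32 (adjusted p = 0.0524). The Fgb spot was saturated for the pool on all 14 arrays and for the animal on 1, so its difference has only a bound on that array. Without resveratrol replicate 3 they were 0.56 (adjusted p = 0.0829) and 0.75 (adjusted p = 0.0187, the 1 acute-phase call in that fit).

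The list of collagen chains and their modification, clients and partners of HSP47, held 17 tested genes. On the high-calorie diet 4 rose and 1 fell (29.4% called, against 9.44% of all genes). With resveratrol 2 fell (11.8%, against 5.39% of all genes). Col3a1 rose by 0.75 ± 0.095 (limma adjusted p = 0.000427) and Col1a2 by 0.61 ± 0.080 (adjusted p = 0.000515). With resveratrol Col3a1 fell by 0.58 (adjusted p = 0.00925) and Col1a2 fell by 0.61 (adjusted p = 0.00398).

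The labelled tissue, liver, was checked against its markers. Of 11 hepatocyte markers, all were above background on every standard and high-calorie array and 10 or 11 on resveratrol arrays, and their mean log2 ratio overlapped between groups (0.18 to 0.53, 0.12 to 0.41 and 0.25 to 0.46), with 2 lower and none higher on the high-calorie diet. Of 7 adipocyte markers, 3 rose and 1 fell on the high-calorie diet, with a median difference of 0.11 and 4 of 7 above zero. Their mean ran from -0.62 to -0.45 on standard arrays, from 0.15 to 0.45 on high-calorie arrays and from -0.0094 to 0.66 on resveratrol arrays. The means of both high-calorie groups lay above those of the standard livers. On the high-calorie diet 9.44% of all genes were called. Among the remaining marker lists there, 5 of 9 stellate cell markers rose and 1 fell. Of the others, 2 of 9 endothelial, 1 of 7 cholangiocyte and 1 of 5 mesothelial markers rose, and 1 of 7 keratinocyte markers fell. None of the neutrophil (8), Kupffer cell and macrophage (10), exocrine pancreas (7), platelet (6), mast cell (6), T and NK cell (8) or B cell (4) markers tested was called in that comparison. With resveratrol, where 5.39% of all genes were called, 1 neutrophil, 1 Kupffer cell, 1 adipocyte and 1 keratinocyte marker rose. In the same comparison 3 stellate, 1 adipocyte and 1 mesothelial marker fell. The part of any of these in the serpin values was not tested.

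Upstream sequence was searched for TTCNNNGAA, a core bound by STAT factors that reads alike on both strands, in the 250 bases that RefSeq's table gives before each gene's start. It occurred in 7.02% of 32851 windows and in 7 of the 47 windows of serpins (14.9%), which belong to 5 of 39 genes (12.8%). A gene can have several windows, and Serpina11 and Serpina3f were each counted more than once with the same letters. The share of all genes that held it was not counted. Of 9 called serpins with a window Serpina11 alone held it. A match is a description of these letters, and no match says nothing of whether a factor binds.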

How the data were processed

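The authors' scanner files hold intensities per spot and channel, read from images with Agilent Feature Extraction 7.5.1 per the file headers. Mean signals and local backgrounds were deposited as read, the processed signals with background subtraction and dye normalization, and the files' flags for saturation, outliers and signal well above background were deposited with them. Per the labels' protocols RNA was purified on Qiagen RNeasy columns, amplified linearly and labelled with Cy3 (animal) or Cy5 (pool of 5 standard-diet livers). The authors also deposited a score per probe and array, centred and scaled within each array. It correlated with log2 Cy3 signal at 0.983 to 0.985, with column medians of -0.0497 to 0.00234. Its log base and centring step are not given in the sources used here, so it served only as an alternative.

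Of 43790 spots, 2256 were controls. The rest were corrected with normexp (offset 50), normalized by loess within each array without between-array scaling, with 576 outlier spots left out, and averaged by probe (41174 probes). Probe names were updated through RefSeq for 20859 probes, and other names were kept as printed in the files, giving 36093 genes. The 32662 genes whose Cy3 signal 4 or more arrays flagged as well above background were fitted with limma 3.58.1 in R 4.3.3, with all 3 groups in 1 model, and p-values were adjusted by the Benjamini-Hochberg method over all genes of a comparison. The fit was tested on simulated data. The number of arrays limits the precision.

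Full values are given for each serpin called in at least 1 comparison and for Serpina3k, Serpina3n, Serpina6, Serpinc1, Serpind1, Serpinf2, Serping1 and Serpinh1 whatever their result (Serpina1e was not analysed here, and 1 member that is counted is not reported). From each pathway list, up to 2 called genes with the smallest adjusted p in a comparison are named, or the 2 with the smallest as values where none was called, and Saa1 and Lcn2 always. Serpins named outside this rule are marked as such. The members and all lists were chosen with earlier results of these data known. Alternatives changed the background correction, normalization, channel, filter, probe rule, array weights, block and arrays included. Replicate numbers are shared between groups in the labels. Same-numbered arrays deviated from their group means with correlations of -0.185 to 0.3. With 4 or 5 arrays a group these cannot settle whether the numbers pair the mice. The arrays were treated as unpaired, and a replicate block was fitted as an alternative. Promoter windows came from RefSeq (GRCm38.p6), which held one for 39 of the 48 serpins, and were aligned with Biopython 1.88.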

Additional observations from a re-analysis of the deposited data

Results flagged for a closer look

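Within the groups of 4 or 5 arrays, 7 of 132 combinations of a tested serpin and a diet held an array far from the others of its group, and chance gives about 1 in 20 such groups. On resveratrol replicate 3, Serpini2 (pancpin) read 1.1075, against 0.0914 to 0.2174 on the other resveratrol arrays. On standard replicate 2, Serping1 (C1 inhibitor) read -0.0779, against 0.6035 to 0.7049, and Serpina7 (thyroxine-binding globulin) read -1.0337, against -0.2986 to -0.0985. Standard replicate 2 was also the dimmest array, with a median Cy3 signal of 48.6. On standard replicate 1, Serpina9 read 0.6724, against -0.0803 to 0.0656. On high-calorie replicate 4, Serpine2 (protease nexin-1) read 0.0681, against -0.1271 to -0.1029, and Serpinb10 read -0.1381, against 0.0295 to 0.0855. On resveratrol replicate 2, Serpina3f read -0.1436, against -0.0411 to -0.0242. The cause of these values was not tested.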

How the results depend on the processing

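For high-calorie minus standard the 11 serpin calls became 7 with median centring in place of loess (3 of them higher), 3 with Cy3 alone, 3 with the deposited scores, 19 with array weights (5 of them higher), 4 within the first Feature Extraction day, 0 within the second and 5 with array brightness as a covariate. Over all genes those settings gave 3032, 430, 417, 6964, 819, 55 and 863 calls in the same order. Leaving out each array in turn gave 7 to 17 serpin calls. For resveratrol minus high-calorie the 7 calls became 0 with median centring, 0 with Cy3 alone, 2 with the scores, 4 with the day as a block and 1 within the first day, and 4 to 8 with an array left out. Over all genes median centring gave 120 calls, Cy3 alone 45 and the scores 48. The day as a block gave 445 and the first day alone 52. For resveratrol minus standard the 0 calls became 1 (Serpina5, lower) with the day as a block and 1 within the first day. Over all genes those settings gave 63 and 55 calls. The serpin count stayed at 0 with any array left out. A replicate block gave 9, 4 and 0 calls in these comparisons (for resveratrol minus high-calorie without Serpina11, Serpinb3b and Serpinf2), and the slide series as a block 9, 5 and 0. Over all genes the replicate block gave 2882, 409 and 48 calls and the slide series 1882, 672 and 10. Leaving out the saturated Serpina1d changed none of the 3 serpin counts. Median centring turned the high-calorie difference of Serpinb9d to 0.0582, Serpinc1 to 0.1136 and Serpinf1 to 0.1232, and the cause was not tested. These were called genes, and the signs of the uncalled Serpind1, Serpinf2 and Serping1 turned too, as did those of Serpinc1, Serpind1 and Serpinf1 for resveratrol minus high-calorie. It raised the share of higher calls over all genes from 56.9% to 79% on the high-calorie diet, lowered it from 58.7% to 25.8% for resveratrol minus high-calorie and raised it from 58.6% to 82.4% for resveratrol minus standard. Over all genes, leaving out an array gave 1379 to 5994, 352 to 2573 and 23 to 214 calls, where 3083, 1760 and 70 were called with every array. Over all other settings the counts ran from 55 (within the second day) to 6964 (array weights), from 45 (Cy3 alone) to 3067 (array weights) and from 4 (scores) to 161 (array weights). The rule for full values takes 18 serpins, among them the 1 that is not reported, and neither Serpina5 nor Serpina7. Some of their alternative values kept their direction, where called, and their side of the threshold. These were 459 of 555 for high-calorie minus standard, 467 of 537 for resveratrol minus high-calorie and 537 of 537 for resveratrol minus standard. Serpina3k kept its call in 30 of 31 settings for high-calorie minus standard and in 28 of 30 for resveratrol minus high-calorie. Saturated spots limit Serpina1d and Serpina3m. Signal near background limits Serpinb10, with a median background-subtracted Cy3 signal of 42.2. Serpinb1c (51.1), Serpina5 (54.7), Serpina3f (55.9), Serpini2 (56.7) and Serpine2 (57.4), among others, were nearly as dim, though flagged well above background on all 14 arrays.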
